A study of Rattus norvegicus with 6 samples.

Results

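The immediate early genes are genes that neurons transcribe within minutes of being activated, without first having to make new protein. The 10 described here were chosen as a list by Ensembl identifier and not by their values: Fos, Fosb, Jun, Junb, Egr1, Egr2, Nr4a1, Npas4, Arc and Dusp1. Earlier results of these data were, however, known when the list was chosen. All 10 were found among the 32402 identifiers of the count table, and 9 of them passed the low-count filter. The table names genes by identifier alone, and the symbols were supplied with the list.

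RNA was sequenced from the paraventricular nucleus of the hypothalamus, a small nucleus beside the third ventricle that holds vasopressin, oxytocin and corticotropin-releasing hormone neurons. One group of male Holtzman rats was sodium depleted with furosemide, a loop diuretic, at 10 mg/kg, and then given low sodium food, with distilled water to drink, until 24 h had passed. The other group is labelled control, and what those rats were injected with, fed and given to drink is not stated in the labels, nor are the rats' ages. Each group had 9 rats, whose tissue was combined into 3 pools of 3 rats, and each pool gave 1 library, so n = 3 per group and the spread between single rats cannot be seen.

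In resting neurons the promoters of these genes are held ready by factors such as SRF and CREB, which are switched on by calcium entry and MAP kinase signalling. Most of the products are transcription factors. Fos and Jun family proteins pair to form AP-1, while Egr, Nr4a and Npas4 proteins bind their own sites, Arc acts at synapses and Dusp1 switches MAP kinases off again. In the paraventricular nucleus Fos induction is a standard marker of neurons activated by dehydration, salt load or stress. Immediate early transcripts usually peak early after a single stimulus and then decline within hours.

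RefSeq promoter sequences (build GRCr8) were at hand for 7 of the 10 genes. Those of Egr1, Egr2, Nr4a1, Dusp1 and Junb are shown because they hold motifs of the signalling described above, and because Nr4a1 and Egr1 had the smallest p-values of the list. Each is the 250 bases before the start site of the transcript used by the table, 5′ to 3′ on the gene's strand. Capitals mark short CREs (TGACG, bound by CREB-family factors) and CArG boxes (bound by SRF), both searched on both strands. The Egr1 promoter lies at chr18:26736828-26737077 (plus strand), Egr2 at chr20:21054442-21054691 (minus), Nr4a1 at chr7:134259888-134260137 (plus), Dusp1 at chr10:17184603-17184852 (plus) and Junb at chr19:40080876-40081125 (plus).
Egr1: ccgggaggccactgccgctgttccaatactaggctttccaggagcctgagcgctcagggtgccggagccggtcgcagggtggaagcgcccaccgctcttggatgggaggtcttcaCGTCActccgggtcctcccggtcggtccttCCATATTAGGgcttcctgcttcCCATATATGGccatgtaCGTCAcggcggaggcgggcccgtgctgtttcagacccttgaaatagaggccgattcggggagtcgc
Egr2: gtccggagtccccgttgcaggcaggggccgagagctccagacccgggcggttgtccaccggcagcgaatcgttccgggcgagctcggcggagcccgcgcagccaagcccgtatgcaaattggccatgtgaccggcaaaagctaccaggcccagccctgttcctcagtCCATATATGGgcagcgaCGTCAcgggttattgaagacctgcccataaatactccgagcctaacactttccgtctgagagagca
Nr4a1: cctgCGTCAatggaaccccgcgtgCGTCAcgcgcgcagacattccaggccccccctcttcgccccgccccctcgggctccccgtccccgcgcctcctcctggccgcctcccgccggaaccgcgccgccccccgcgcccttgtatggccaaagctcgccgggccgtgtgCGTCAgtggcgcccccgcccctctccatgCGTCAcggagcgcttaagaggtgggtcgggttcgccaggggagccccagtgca
Dusp1: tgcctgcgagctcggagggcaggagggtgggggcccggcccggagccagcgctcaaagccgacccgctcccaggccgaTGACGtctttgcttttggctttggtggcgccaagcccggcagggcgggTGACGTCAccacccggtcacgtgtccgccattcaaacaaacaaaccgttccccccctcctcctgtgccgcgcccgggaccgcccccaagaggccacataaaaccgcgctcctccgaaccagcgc
Junb: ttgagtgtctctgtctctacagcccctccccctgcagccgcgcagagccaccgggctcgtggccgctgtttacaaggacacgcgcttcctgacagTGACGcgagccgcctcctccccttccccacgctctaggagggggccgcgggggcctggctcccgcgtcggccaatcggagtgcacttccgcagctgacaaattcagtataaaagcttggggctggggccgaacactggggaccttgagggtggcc
Egr1 and Egr2 share an arrangement. Both have a CArG box with the letters CCATATATGG that begins 83 bases before the start site, and both have a short CRE that begins 66 bases before it. Egr1 has a second CArG box and a second short CRE further upstream. The Nr4a1 promoter has 4 short CREs and no CArG box. Dusp1 has 3 short CREs, counting both strands of the full palindrome TGACGTCA that begins 124 bases before the start site and overlaps 2 of them. Junb has 1 short CRE. A short CRE was found in 5 of the 7 promoters, against 18.2% of the 33469 RefSeq promoters of the same length, and a CArG box in 2 of 7, against 1.5%. The full CRE was in 1 of 7 (1.59% of all promoters). The AP-1 site TGANTCA (6.34% of all promoters) and the EGR site GCGTGGGCG (0.478%) were in none of the 7. The shares over all promoters were not matched to the 7 for base composition, and enrichment was not tested. In 3 of the 7 genes, Junb, Egr1 and Dusp1, the window ends at the gene's outermost start, and each of these 3 holds a short CRE. In the other 4, Fosb, Egr2, Nr4a1 and Npas4, it ends at the start of a transcript further inside the gene, and 2 of these 4 hold one. A window of the second kind may not be the promoter the gene mainly uses, so neither a match nor a lack of one there speaks for the gene. The matches describe letters in the windows and not occupancy.

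The libraries held 20911950 to 22495415 counts. Levels are in CPM (counts scaled to equal library size) after TMM scaling, with factors that lay between 0.994 and 1.01. The control 1 pool stood low for most of the list, and the main values that rest on it are also given without it. No identifier other than the 10 could be tied to a symbol, so the tissue label could not be checked against marker genes, and other genes of the pathway could not be counted. In tissue pools such as these, fewer cells expressing a gene and less RNA per cell cannot be told apart.

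At 24 h after furosemide, no immediate early gene differed from control past the threshold, and the pools of the groups overlapped for each of them. The largest estimate was that of Nr4a1, at 1.28-fold the control level, followed by Fos at 1.20-fold, Npas4 at 0.833-fold and Egr1 at 1.19-fold. Jun, Junb and Arc were within 1.03-fold of control. With the edgeR quasi-likelihood test none of the 9 tested genes (0 higher, 0 lower) reached an adjusted p under 0.05, and 0% of all 16344 tested genes did. DESeq2, the edgeR exact test and limma-voom likewise called 0 of the list, although DESeq2 called 18 genes higher and 22 lower over the whole table and the exact test 15 and 30. At an unadjusted p under 0.05 there was 1 member, Nr4a1, upward, where 3.82% of all tested genes reached that level upward and 4.27% downward. The control and furosemide pools overlapped for all 9 tested genes and for Egr2, which was not tested. Of all tested genes, 13.5% had groups that did not overlap. At that share few or none would be expected in a list this short, so the overlap does not set the members apart.

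**Figure D1:**
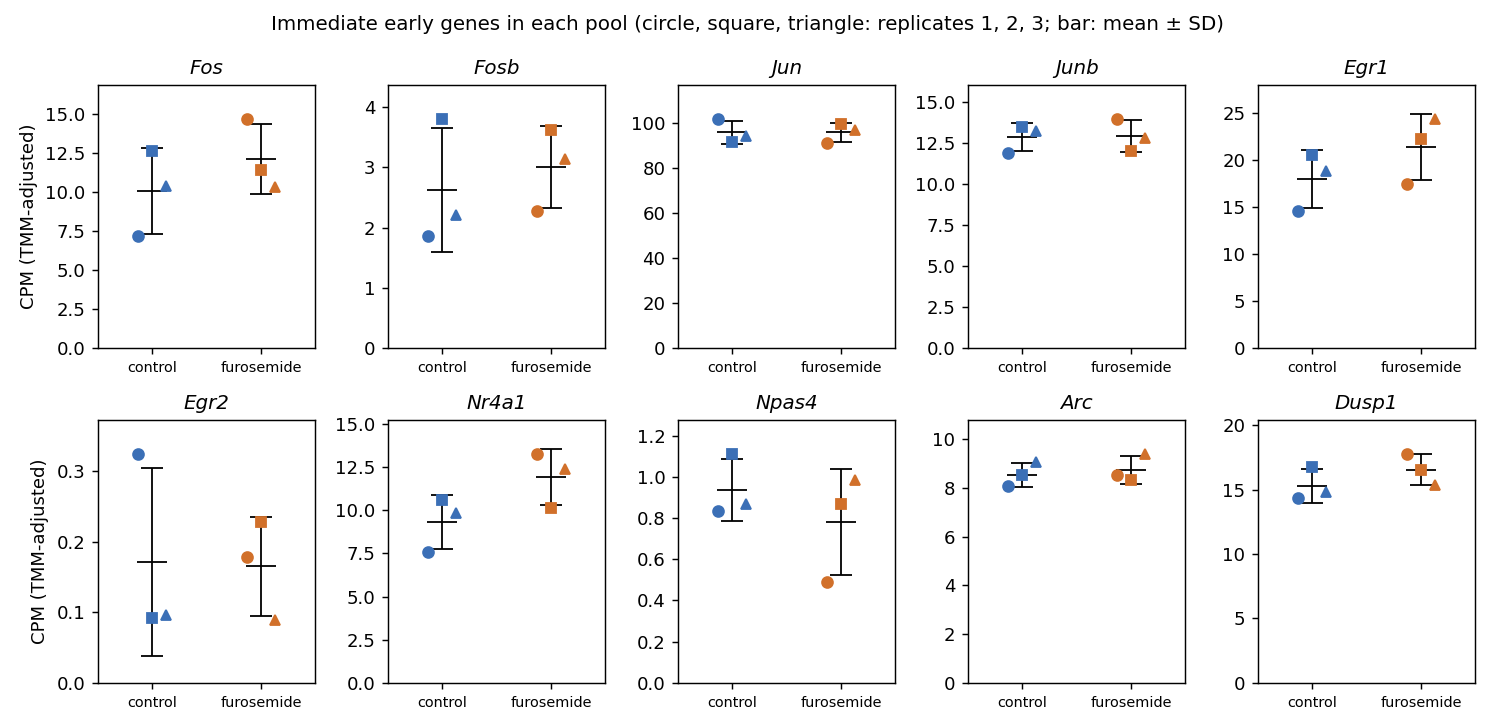
Expression (CPM after TMM scaling, axes starting at 0) of the 10 genes in each pool, with the group mean and SD (n = 3). Control and furosemide pools overlap in every panel, and the control 1 pool (blue circle) is the lowest of the 6 for Fos, Fosb, Junb, Egr1, Nr4a1, Arc and Dusp1.

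Fos (ENSRNOG00000008015) encodes the AP-1 subunit most used to map activated neurons. It stood at 7.18, 12.6 and 10.4 CPM in control pools 1, 2 and 3 and at 14.6, 11.4 and 10.3 CPM in furosemide pools 1, 2 and 3. The lowest value was in control 1 and the highest in furosemide 1, while the other 4 pools interleaved. The control mean was 10.1 ± 2.74 CPM and the furosemide mean 12.1 ± 2.27 CPM (SD, n = 3 each). On the log2 scale the difference was 0.27 (SE 0.17), or 1.20-fold, and its 95% interval ran from 0.934-fold to 1.55-fold (edgeR adjusted p = 0.728). Without control 1 the log2 fold change was 0.07, without furosemide 1 it was 0.11, and without control 2 it was 0.47, with edgeR adjusted p-values of 0.925, 0.936 and 0.642. Over all 15 alternative analyses the adjusted p of Fos ran from 0.642 to 0.999.

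Fosb (ENSRNOG00000046667), a Fos relative whose truncated form builds up with repeated stimulation, was measured from 40 to 82 counts per pool. Its control values were 1.85, 3.80 and 2.21 CPM and its furosemide values 2.27, 3.61 and 3.13 CPM. The highest and the lowest pool were both controls. The fold difference was 1.14, and its 95% interval ran from 0.790 to 1.65 (edgeR adjusted p = 0.889). Its estimate turned with single pools, from a log2 fold change of -0.0054 without control 1 to 0.56 without control 2.

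Jun (ENSRNOG00000026293), the AP-1 partner of Fos proteins, was the most evenly measured member, with 1956 to 2191 counts per pool. It stood at 102, 91.6 and 94.2 CPM in controls and 91.2, 99.6 and 96.6 CPM after furosemide. The means were 95.8 ± 5.19 and 95.8 ± 4.27 CPM (SD, n = 3 each), and the interval of the fold difference, 0.934 to 1.07, was the narrowest of the list. Junb (ENSRNOG00000042838), a Jun relative that can restrain AP-1 activity, stood at 11.87, 13.47 and 13.19 CPM in controls and 13.94, 12.02 and 12.80 CPM after furosemide. Its fold difference was 1.01, with an interval of 0.885 to 1.14. Neither Jun gene differed by more than its spread between pools, and the sign of either estimate depended on which pool was left out.

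Egr1 (ENSRNOG00000019422), a zinc-finger factor induced through SRF, stood at 14.6, 20.5 and 18.8 CPM in controls and 17.5, 22.2 and 24.3 CPM after furosemide. The highest 2 pools were furosemide and the lowest was control 1, but furosemide 1 lay below control 2 and control 3. The means were 18.0 ± 3.07 and 21.3 ± 3.50 CPM (SD, n = 3 each), a log2 difference of 0.25 (SE 0.13, edgeR adjusted p = 0.658, 0.505 to 0.999 over the alternatives). Its 95% interval ran from 0.984-fold to 1.43-fold. The log2 fold change was 0.12 without control 1, 0.14 without furosemide 3 and 0.37 without furosemide 1.

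Egr2 (ENSRNOG00000000640), a relative of Egr1, was at the limit of detection. It had 7, 2 and 2 counts in control pools and 4, 5 and 2 in furosemide pools, too few for the low-count filter. The CPM values were 0.324, 0.0926 and 0.0963 in controls and 0.178, 0.228 and 0.0895 after furosemide. The exact 95% Poisson interval of the highest pool, control 1, was 0.130 to 0.669 CPM, and that of the lowest, furosemide 3, was 0.0108 to 0.323 CPM, so these 2 pools overlapped within counting error alone. A difference between the groups was not detectable at this depth.

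Nr4a1 (ENSRNOG00000007607), an orphan nuclear receptor also called Nur77, showed the largest difference of the list. Its values were 7.60, 10.6 and 9.82 CPM in controls and 13.3, 10.1 and 12.4 CPM after furosemide. Furosemide 1 and furosemide 3 lay above every control pool, while furosemide 2 lay below control 2. The means were 9.34 ± 1.56 and 11.9 ± 1.61 CPM (SD, n = 3 each). The log2 difference was 0.35 (SE 0.13), and its 95% interval ran from 1.06-fold to 1.55-fold. It ranked at place 480 of 16344 genes by p, with an edgeR adjusted p of 0.502 (0.349 to 0.741 over the alternatives), and so did not pass the threshold. The two-sided exact permutation test of its log2 CPM gave p = 0.2, where 3 pools against 3 cannot go below 0.1. Its log2 fold change was 0.23 without control 1, the smallest of the omissions, and 0.46 without furosemide 2, the largest.

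Npas4 (ENSRNOG00000020009), a factor that answers mainly to calcium entry in neurons, was weakly measured, with 11 to 24 counts per pool. It stood at 0.834, 1.11 and 0.867 CPM in controls and 0.490, 0.868 and 0.985 CPM after furosemide. It was the only tested member with a downward estimate, a log2 fold change of -0.26, and its 95% interval from 0.531-fold to 1.31-fold was the widest of the list on the log scale. The furosemide 1 pool set this estimate, which was -0.017 without it.

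Arc (ENSRNOG00000043465), whose product works at activated synapses and does not bind DNA, stood at 8.07, 8.52 and 9.05 CPM in controls and 8.55, 8.32 and 9.40 CPM after furosemide. Its fold difference was 1.03, with a 95% interval of 0.887 to 1.19. Dusp1 (ENSRNOG00000003977), a phosphatase that ends MAP kinase signalling, stood at 14.3, 16.8 and 14.8 CPM in controls and 17.8, 16.5 and 15.4 CPM after furosemide. Its fold difference was 1.08, and its interval ran from 0.956 to 1.23 (edgeR adjusted p = 0.783). On the log2 scale its estimate was 0.11 with all pools, 0.060 without furosemide 1, 0.070 without control 1 and 0.19 without control 2. The control 2 pool lay above 2 of the 3 furosemide pools for Dusp1, and the Arc pools of both groups interleaved.

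**Figure D2:**
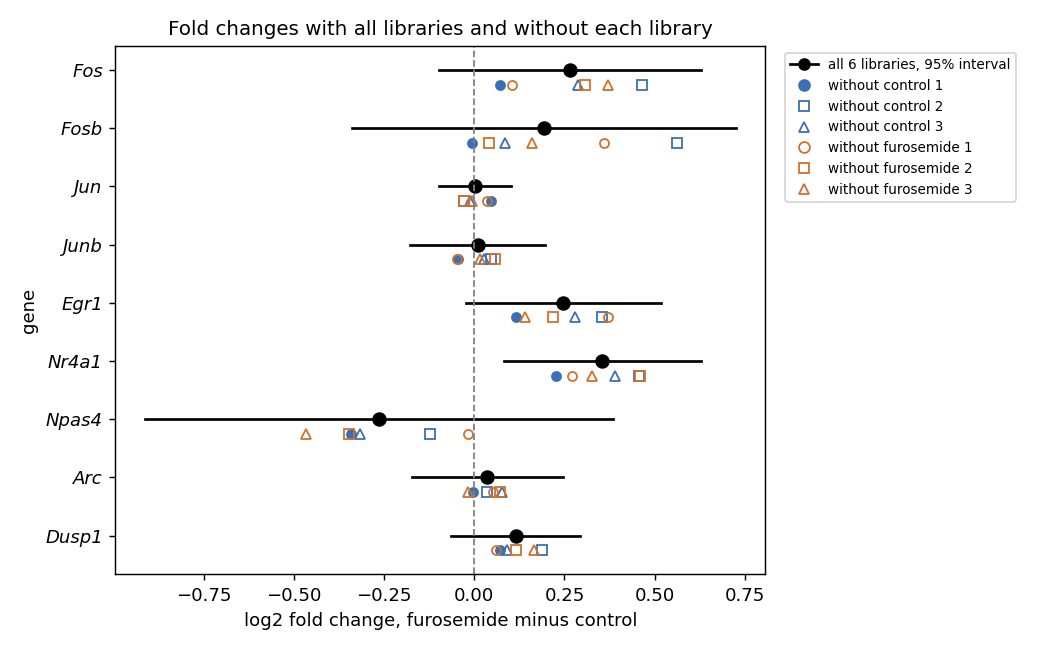
Log2 fold changes (furosemide minus control) of the 9 tested genes, with black points and 95% intervals from all 6 libraries and coloured marks for the fit without each library. Only the Nr4a1 interval lies above 0, and leaving out control 1 (filled blue circle) moves Fos to 0.07, Egr1 to 0.12 and Nr4a1 to 0.23.

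Of the 9 tested genes, 8 had an upward estimate, while 50.3% of all tested genes did. The 8 include Jun, Junb and Arc, whose log2 fold changes were only 0.0009, 0.0091 and 0.036. The median log2 fold change of the 9 was 0.11, against 0.0004 over all tested genes. Both the number upward and the median moved with single pools. Without control 1, 5 of the 9 were upward, their median was 0.047, and 0 had an unadjusted p under 0.05. Without control 2, in contrast, 4 had an unadjusted p under 0.05, namely Fos, Fosb, Egr1 and Nr4a1, while 7 of the 9 were upward and the median was 0.19. The median was 0.060 without furosemide 1 and 0.071 without furosemide 2, and 6 of 9 were upward without furosemide 3. In the edgeR quasi-likelihood fit of all 6 libraries, differences beyond 1.5-fold lay outside the 95% interval for 5 of the 9 genes. These were Jun, Junb, Egr1, Arc and Dusp1. Egr1 came closest to that limit, at 1.43-fold. Its unadjusted p was 0.0708 in that fit, 0.192 with robust dispersions and 0.222 in DESeq2, at a log2 fold change of 0.25 in each. Without furosemide 1 its log2 fold change was 0.37, so the Egr1 bound may not hold in other fits. For Fos, Fosb, Nr4a1 and Npas4 the intervals reached further.

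The spread between pools differed among the members. For Jun, Junb, Arc and Dusp1 the coefficient of variation between control pools was 5.42%, 6.67%, 5.77% and 8.46%. Fos varied by 27.2%, Fosb by 39.4%, Egr1 by 17.1% and Nr4a1 by 16.7%. Between the furosemide pools the same 4 genes varied by 18.7%, 22.6%, 16.4% and 13.5%, and Jun, Junb, Arc and Dusp1 by 4.45%, 7.47%, 6.51% and 7.29%. Single pools carried much of this spread in both groups. Without furosemide 1, the furosemide pools varied by 7.07% for Fos, 10.0% for Fosb and 6.52% for Egr1, but 14.1% for Nr4a1. Without control 2, the control pools varied by 12.5% for Fosb. These omissions were chosen after the values were seen. Control 1 carried much of the control spread of Fos, Egr1 and Nr4a1. Between control 2 and control 3 alone, a comparison added after the values were seen, Fos varied by 13.7%, Egr1 by 6.05% and Nr4a1 by 5.39%, while Fosb still varied by 37.2%. Counting noise alone would give 6.43% for Fos, 12.8% for Fosb, 4.83% for Egr1 and 6.56% for Nr4a1. The variance of Fos was 16.2 times the counting variance between control pools and 9.24 times between furosemide pools. For Arc the same ratios were 0.620 and 0.808, a spread no wider than counting noise.

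The edgeR biological coefficient of variation, which takes out counting noise and is shrunk towards a trend, was 13.5% for Fos and 17.6% for Fosb. It was 10.1% for Egr1, 9.46% for Nr4a1 and 11.9% for Npas4. The median over all tested genes was 5.19%. Fosb was at or above 98.6% of all tested genes in this measure and Fos at or above 95.4%. Jun, at 3.89%, was the 1 tested member under the median. Arc stood above it at 6.03%, although its pools spread no wider than counting noise. For Npas4 the variance was 0.531 times the counting variance between control pools and 1.87 times between furosemide pools. The genes behind the median and the percentages were not matched to the members for abundance.

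**Figure D3:**
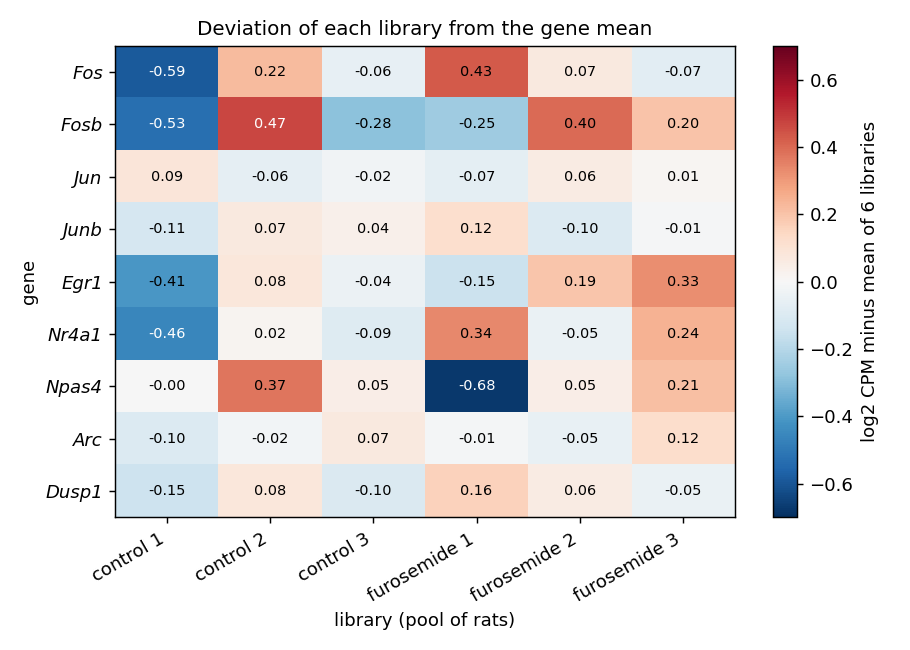
Deviation of each library from the gene's own mean of the 6 libraries (log2 CPM, colour scale and printed values) for the 9 tested genes. Control 1 is blue for Fos (-0.59), Fosb, Egr1 and Nr4a1, and furosemide 1 is red for Fos (0.43) and Nr4a1 but dark blue for Npas4 (-0.68).

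The pool-to-pool differences had a shape. Control 1 was the lowest of the 6 pools for 7 of the 9 tested genes, while it was the lowest for 16.5% of all tested genes. Its total of 21443039 counts lay within the range of the others, and its TMM factor was 1.01. Furosemide 1 was the highest pool for 4 genes, Fos, Junb, Nr4a1 and Dusp1, against 15.9% of all tested genes, and the lowest for Jun and Npas4. Egr1 and Arc were highest in furosemide 3, Fosb and Npas4 in control 2, and Jun in control 1. The members therefore did not share 1 order of pools. What set control 1 apart for these genes was not tested, and the labels give no dates of dissection or library preparation.

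Co-variation was measured over the 6 libraries for all 36 pairs of the 9 genes, with exact permutation p-values (two-sided, 720 pairings) adjusted by the Benjamini-Hochberg method over the pairs. No pair had an adjusted p under 0.05 by Pearson's r or by Spearman's rho, while 5 and 2 pairs did before adjustment. With 720 pairings adjusted over 36 pairs, a lone pair could not go below 0.05 by r or 0.1 by rho. The adjusted threshold was therefore out of reach for any lone pair, however close. The closest relation was an opposed one. Jun and Junb stood in exactly reversed order across the 6 pools, with r = -0.98 (exact permutation p = 0.00139, adjusted p = 0.05) and rho = -1 (exact permutation p = 0.00278, adjusted p = 0.1). Their r was -0.97 without the 2 pools farthest from the median of Jun, and -0.99 on deviations from the group means. The range involved was small, 1.11-fold for Jun and 1.17-fold for Junb. The variance of Junb was 1.24 times the counting variance between control pools and 1.57 times between furosemide pools. Its spread was thus little wider than counting noise.

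Fos and Jun were also opposed, with r = -0.82 (exact permutation p = 0.0333, adjusted p = 0.308) and rho = -0.83 (exact permutation p = 0.0583, adjusted p = 0.408). Their r was -0.42 without the 2 farthest pools, control 1 and furosemide 1, and -0.92 on deviations from the group means. Fos and Dusp1 ran in parallel, with r = 0.92 (exact permutation p = 0.00556, adjusted p = 0.1) and rho = 0.94 (exact permutation p = 0.0167, adjusted p = 0.3). Without the 2 farthest pools r was 0.89. Fos and Nr4a1 had r = 0.83 (exact permutation p = 0.0472, adjusted p = 0.308) and rho = 0.66 (exact permutation p = 0.175, adjusted p = 0.45), but r was -0.27 without the 2 farthest pools, control 1 and furosemide 1, so this relation rested on them. Fosb and Egr1 had r = 0.83 (exact permutation p = 0.0417, adjusted p = 0.308) and rho = 0.71 (exact permutation p = 0.136, adjusted p = 0.408), and r stayed at 0.85 without the farthest 2. Fos and Egr1 had r = 0.41 and rho = 0.029, with exact permutation p-values of 0.422 and 1 (adjusted 0.672 and 1), and r was -0.19 without the 2 farthest pools.

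**Figure D4:**
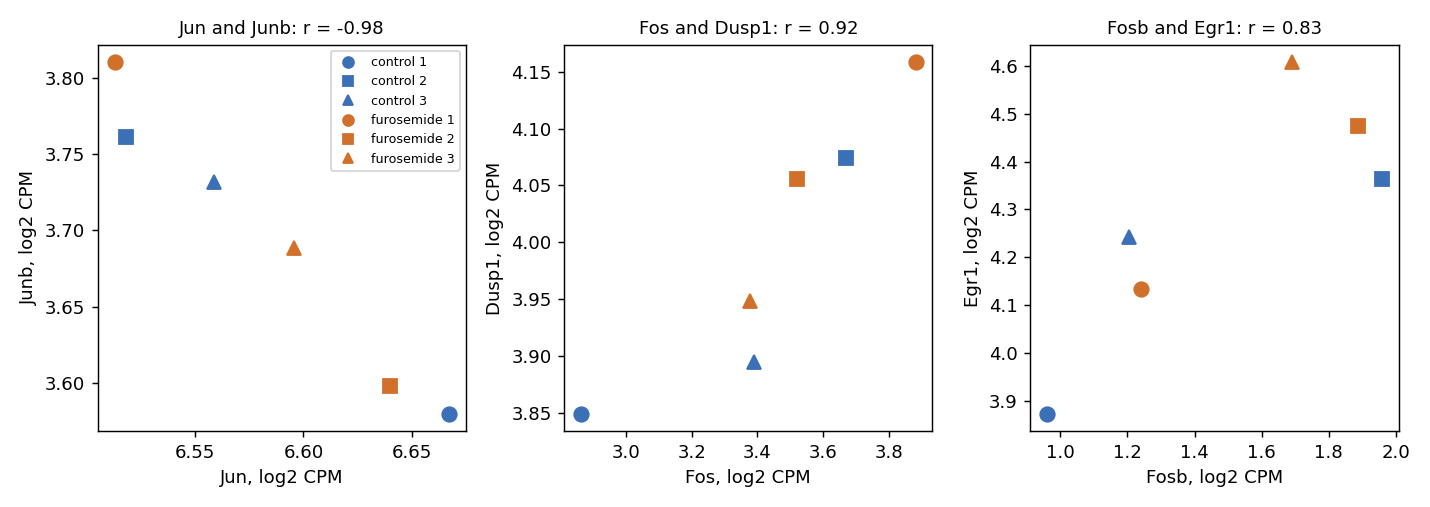
Log2 CPM of 3 pairs of genes in the 6 libraries, each point 1 library (blue control, orange furosemide). Jun and Junb run in reversed order (r = -0.98), while Fos and Dusp1 (r = 0.92) and Fosb and Egr1 (r = 0.83) run in parallel, and pools of both groups are mixed along each line.

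By the root mean square difference of log2 deviations over the 6 libraries, the member nearest to Fos was Nr4a1, at 0.173, followed by Dusp1 at 0.219 and Junb at 0.254. Of 15183 other genes that averaged 1 CPM or more, 38 were nearer to Fos than Nr4a1 was. The nearest 2 were ENSRNOG00000038205, at 0.110, and ENSRNOG00000047278, at 0.118. ENSRNOG00000038205 stood at 1.62, 2.45 and 2.12 CPM in controls and 3.25, 2.06 and 2.06 CPM after furosemide, with control 1 lowest and furosemide 1 highest, as for Fos. The likeness is a description over 6 libraries and carries no p.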

How the data were processed

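The authors deposited raw read counts per Ensembl gene identifier, 1 column per library. Tools listed per the submitters' processing notes are TopHat, HTSeq, FastQC and edgeR. Versions, genome build, annotation and strand setting: not given in the sources used here. Per the labels' protocols, RNA was extracted with QIAzol and RNeasy columns and libraries were made with a TruSeq mRNA kit. Columns were matched to libraries by group and replicate number.

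From the deposited counts, edgeR 4.0.16 in R 4.3.3 kept 16344 genes by the default filterByExpr setting (99.9% of counts), scaled libraries by TMM and tested furosemide against control by the quasi-likelihood F test, with Benjamini-Hochberg adjustment over all tested genes. The fit was tested on simulated data. Standard errors are the log2 fold change over the root of F. Logarithms of CPM used a prior count of 2. Replicates are separate pools of rats, and p-values set the group difference against the spread between these pools. The quasi-likelihood test moderates the spread of each gene towards a trend over all tested genes (median prior degrees of freedom 9.64). Standard errors and intervals therefore do not rest on a gene's own pools alone. For Fos the unadjusted p was 0.139 in this test, 0.312 with robust dispersions and 0.338 in DESeq2. Poisson intervals cover counting error only.

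The members, the lists and the tests were chosen with earlier results of these data known. All 10 members are named whatever their values, and genes like Fos by the smallest root mean square difference, of which 2 are given. The 3 plotted pairs were picked with the values of r known, but not strictly by size. Fos and Nr4a1, at r = 0.835 against 0.831 for Fosb and Egr1, were not plotted. Lists of related genes and cell type markers, fixed by symbol, were not counted, because the reference table used here pairs no Ensembl identifiers with symbols. Alternatives were DESeq2 1.42.0, limma-voom with sample weights (limma 3.58.1), the exact test of edgeR, robust dispersions, RLE factors, library size alone, no filter, a filter of 1 CPM in 3 libraries, a replicate block and leaving out each library. Promoters came from the RefSeq table (build GRCr8), matched by symbol for 7 of 10 genes, and the build of the counts may differ.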

Additional observations from a re-analysis of the deposited data

How the results depend on the processing

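No immediate early gene passed an adjusted p under 0.05 in any of the 15 alternatives, in which 9 genes gave 134 fits (Npas4 did not pass the filter of 1 CPM in 3 libraries, and DESeq2 gave no adjusted p for Fosb, Npas4 and Arc). Of these fits, 125 kept the direction. The 9 that did not all left out 1 library. Their ranges over the omissions were -0.0054 to 0.56 for Fosb, -0.030 to 0.047 for Jun, -0.049 to 0.058 for Junb and -0.018 to 0.078 for Arc, on the log2 scale. The number of members with an unadjusted p under 0.05 and an upward estimate, 1 with all libraries, was 2 without a low-count filter, 2 with the replicate block (Egr1 and Nr4a1) and 0 to 4 without 1 library, lowest without control 1 and highest without control 2. The edgeR exact test, DESeq2 and limma-voom each gave 1, Nr4a1. Over all genes, 0 were called in either direction, but 12 higher and 16 lower were called without a filter, 18 and 22 by DESeq2, 15 and 30 by the exact test, 3 and 1 with robust dispersions, 0 and 1 with the replicate block, and 0 to 6 and 0 to 11 without 1 library, the most without control 1. Genes with an unadjusted p under 0.05 numbered 624 higher and 698 lower, and 303 and 386 in DESeq2. For these the cause was not tested. Deviations from the group means in libraries with the same replicate number correlated at -0.025, -0.012 and -0.092 across genes, so the block was not taken as a pairing. Other activity-related lists were not counted in any setting, since identifiers had no symbols. Depth limits Egr2 and Npas4.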
